A study of Homo sapiens with 23 samples.

Results

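The 9 genes described here carry out the class I route of antigen presentation: the heavy chains HLA-B, HLA-C, HLA-E and HLA-F, their partner B2M, the peptide transporter genes TAP1 and TAP2, and the immunoproteasome genes PSMB8 and PSMB9. They were taken by gene symbol from a named list, with no threshold on a measured value. All 9 were present among the 61806 genes counted in the first 17 libraries and among the 42901 genes counted in 6 deeper libraries.

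Class I molecules display short peptides from inside the cell on its surface, where cytotoxic T cells and natural killer cells read them. Proteins are cut by the proteasome, whose catalytic subunits are replaced by PSMB8, PSMB9 and PSMB10 in the immunoproteasome, and the peptides are pumped by the TAP1-TAP2 transporter into the endoplasmic reticulum, where they are loaded onto a heavy chain paired with beta-2 microglobulin (B2M). The genes are classical targets of interferon signalling and of the transactivator NLRC5, and tumours, lung adenocarcinomas among them, often express them at reduced levels.

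The study asked how the transcriptome of A549, a human lung adenocarcinoma cell line, responds to depletion of THUMPD3, a tRNA methyltransferase. An siRNA (siD3 #3, labelled siTHUMPD3) was compared with siControl at day 5, and each of 2 inducible shRNAs, shD3 #1 and shD3 #4, with sh1Control and sh4Control at day 6. Each group had 3 libraries except siControl, of which 2 were analysed here. The knockdowns carry the label THUMPD3 knockdown and all controls the label WT. The shRNAs were delivered by lentivirus in a doxycycline-inducible vector with puromycin selection, and the sources used here do not say whether sh1Control and sh4Control, which the study calls untreated, were uninduced cells of the same lines or carried another hairpin, nor whether a line was 1 clone. The labels call the replicates biological. The 6 deep libraries hold 3 of sh1Control and 3 of shD3 #1, and whether they come from the same cultures as the first ones is not given. Delivery and harvest day differ together between siRNA and shRNA and cannot be told apart. The study's methods set untreated against treated samples within each type of knockdown. If the shRNA controls were uninduced, doxycycline and knockdown differed together in each shRNA comparison and cannot be told apart.

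Counts per library totalled 9854294 to 22101059 in the first libraries and 27285889 to 59974740 in the deep ones, with the lowest total in shD3 #1 replicate 3. The THUMPD3 levels of knockdown and control libraries did not overlap in any comparison, with a fitted log2 fold change of -0.97 in shD3 #1, -1.67 in shD3 #4, -2.54 in siD3 #3 and -1.01 in the deep libraries. The summed level of 5 epithelial markers was 5519 to 5699 cpm in shD3 #1 against 4546.5 to 4777 cpm in sh1Control. In shD3 #4 it was 3908 to 4291 cpm against 5020 to 5236 cpm in sh4Control. In siD3 #3 the groups overlapped, at 2367 to 4967 cpm against 3503 to 4542 cpm. KRT19 alone was 2.66-fold higher there without overlap (adjusted p = 0.00163, edgeR), and KRT8, KRT18, EPCAM and CDH1 overlapped. Within shD3 #1, KRT19 was 3.87-fold and EPCAM 2.00-fold higher, and CDH1 was 2.62-fold lower. Of 8 markers of leukocytes and antigen-presenting cells, CD3E, MS4A1 and FCGR3A had no count in any first library and PTPRC had at most 4 counts, but the summed level of the 8 was 22.3 to 31.3 cpm in siD3 #3 against 6.93 to 7.95 cpm in siControl, mostly from the integrin genes ITGAM and ITGAX. In shD3 #4 this sum was 6.19 to 8.14 cpm against 4.95 to 5.63 cpm in sh4Control. In shD3 #1 the groups overlapped for this sum, with ITGAX 4.02-fold higher and CD14 1.73-fold lower. The sum of 5 fibroblast markers was above controls in every knockdown, at 6.11 to 12.1 cpm against 2.78 to 8.36 cpm. The sum of 3 endothelial markers (PECAM1, VWF and CDH5) was 0.851 to 1.55 cpm in shD3 #4 against 0.316 to 0.479 cpm in sh4Control and 0.847 to 1.54 cpm in siD3 #3 against 0.139 to 0.218 cpm in siControl, and in shD3 #1 the groups overlapped. The part of these markers in the results below was not tested. Library siD3 #3 replicate 3 stood apart from replicates 1 and 2 (chi-square per degree of freedom of 30.4 and 34.6, against 3.76 between those 2), so changes, list counts, subunit ratios and tests of differences that rest on the siRNA are given again without it.

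Of these genes, 8 lie in the major histocompatibility complex on chromosome 6 and B2M on chromosome 15 (GRCh38, GENCODE). HLA-F lies at chr6:29722775-29738528 and HLA-E at chr6:30489509-30494194, both on the plus strand. HLA-C lies at chr6:31268749-31272130 and HLA-B at chr6:31353872-31367067, both on the minus strand. TAP2 (chr6:32821833-32838739, minus), PSMB8 (chr6:32840717-32844679, minus), TAP1 (chr6:32845209-32853816, minus) and PSMB9 (chr6:32844136-32859851, plus) form 1 cluster. In it, the annotated span of PSMB9 contains TAP1 and overlaps the 5′ part of PSMB8. B2M lies at chr15:44711358-44718851 on the plus strand. The heavy chain genes resemble each other and differ between people, so reads can be lost or shared among them, and their counts are uncertain for that reason. Exons of HLA-B share 32.7% of their bases with other genes on the same strand (DHFRP2 and MIR6891) and 14.8% with genes on the opposite strand, and those of TAP2 share 19.5% on the same strand. Exons of HLA-F share 28.0% of their bases with genes on the opposite strand, among them HLA-F-AS1, those of TAP1 share 14.2% with PSMB8-AS1, and those of PSMB8 share 17.3% with PSMB8-AS1 and PSMB9. Reads in a same-strand overlap can be lost to or shared with the other gene. The libraries keep strand, but which strand column was counted is not given in the sources used here, and without it reads from a gene and its antisense partner cannot be told apart.

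Per kilobase of merged exons, B2M had the highest level in sh1Control at 63.7 ± 4.02 cpm per kb (SD, n = 3). HLA-E (23.4 ± 1.33) and HLA-C (18.2 ± 0.445) came next in cpm per kb, followed by TAP1 at 10.2 ± 0.356. The lower 5 were HLA-B at 3.33 ± 0.146, PSMB8 at 3.08 ± 0.250, TAP2 at 1.5 ± 0.0746, PSMB9 at 1.15 ± 0.140 and HLA-F at 0.541 ± 0.0136 cpm per kb. HLA-B and PSMB8 did not differ beyond their spread. With the length of the canonical transcript instead, HLA-C (29.5 cpm per kb) stood above HLA-E (26.9) and PSMB9 (3.76) above TAP2 (2.76), so these neighbours have no fixed order. In siD3 #3, TAP1 reached 23.0 ± 1.74 cpm per kb, close below HLA-C at 27.1 ± 0.318, and HLA-F (1.35 ± 0.0568) stood above TAP2 (1.25 ± 0.0309).

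The stretches of 250 bases before the start sites of 4 of these genes are printed because HLA-B, HLA-F, TAP1 and PSMB9 are the genes called in 1 or more knockdowns whose values are described most below, and TAP1 and PSMB9 are transcribed away from each other from start sites 488 bases apart. Sequences are from RefSeq (GRCh38.p14), 5′ to 3′ on the strand of the gene, with matches to any of 5 motifs in capitals, and no link between these letters and the changes was tested. They lie at chr6:31357180-31357429 (minus), chr6:29723184-29723433 (plus), chr6:32853705-32853954 (minus, the outer of its 2 listed starts) and chr6:32853942-32854191 (plus).
HLA-B: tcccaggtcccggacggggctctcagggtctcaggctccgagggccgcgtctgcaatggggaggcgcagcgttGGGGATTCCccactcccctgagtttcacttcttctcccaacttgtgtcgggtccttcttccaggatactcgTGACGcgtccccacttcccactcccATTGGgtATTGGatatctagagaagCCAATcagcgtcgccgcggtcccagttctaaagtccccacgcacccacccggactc
HLA-F: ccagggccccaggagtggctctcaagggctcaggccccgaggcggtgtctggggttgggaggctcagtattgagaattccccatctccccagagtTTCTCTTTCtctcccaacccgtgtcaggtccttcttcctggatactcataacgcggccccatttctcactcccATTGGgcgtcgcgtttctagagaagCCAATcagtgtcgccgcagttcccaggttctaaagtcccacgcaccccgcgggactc
TAP1: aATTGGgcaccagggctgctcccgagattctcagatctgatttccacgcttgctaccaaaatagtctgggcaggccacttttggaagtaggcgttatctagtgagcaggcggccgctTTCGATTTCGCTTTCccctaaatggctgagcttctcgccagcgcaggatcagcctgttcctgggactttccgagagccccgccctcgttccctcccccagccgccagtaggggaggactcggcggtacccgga
PSMB9: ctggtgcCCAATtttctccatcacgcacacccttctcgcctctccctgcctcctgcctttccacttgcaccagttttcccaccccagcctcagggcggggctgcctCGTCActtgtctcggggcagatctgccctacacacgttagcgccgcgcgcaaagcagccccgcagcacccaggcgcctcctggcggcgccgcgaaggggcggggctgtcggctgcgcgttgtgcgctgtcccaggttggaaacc

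The motifs, searched on both strands, were the core of the interferon-stimulated response element (GAAANNGAA), the gamma-activated site (TTCNNNGAA), the kappaB site of the class I enhancer A (GGGGATTCC), the core of the cyclic AMP response element (TGACG) and the CCAAT box (CCAAT). Windows of 8 of the 9 genes were matched, all but HLA-E. HLA-B held the kappaB letters, which 0.253% of all 35116 windows of this length hold, with 1 TGACG (21.2% of windows) and 3 CCAAT (32.0%). HLA-F held 1 interferon response core, present in 6.88% of windows, and 2 CCAAT. TAP1 held 2 overlapping interferon response cores and 1 CCAAT. PSMB9 held neither an interferon response core nor a gamma-activated site (6.57% of windows) among these letters, but 1 TGACG and 1 CCAAT. The TAP1 cores lie between the start sites of TAP1 and PSMB9, outside the stretch searched for PSMB9, so they are upstream of both genes. B2M also held 2 interferon response cores, TAP2 held 1, and HLA-C and both listed windows of PSMB8 held none. Among the matched windows, gamma-activated site letters were found only in the inner windows of TAP1 and PSMB8, which are not printed.

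Levels are given below as TMM-normalised cpm, that is counts divided by the effective size of their library, in replicate order, scaled within each comparison. A gene was called higher or lower where its adjusted p-value over all genes tested (edgeR) was under 0.05 and its fold change was at least 1.5 in either direction, the threshold of the study. In bulk RNA, a change in every cell and a change in a share of the cells cannot be told apart.

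**Figure D1:**
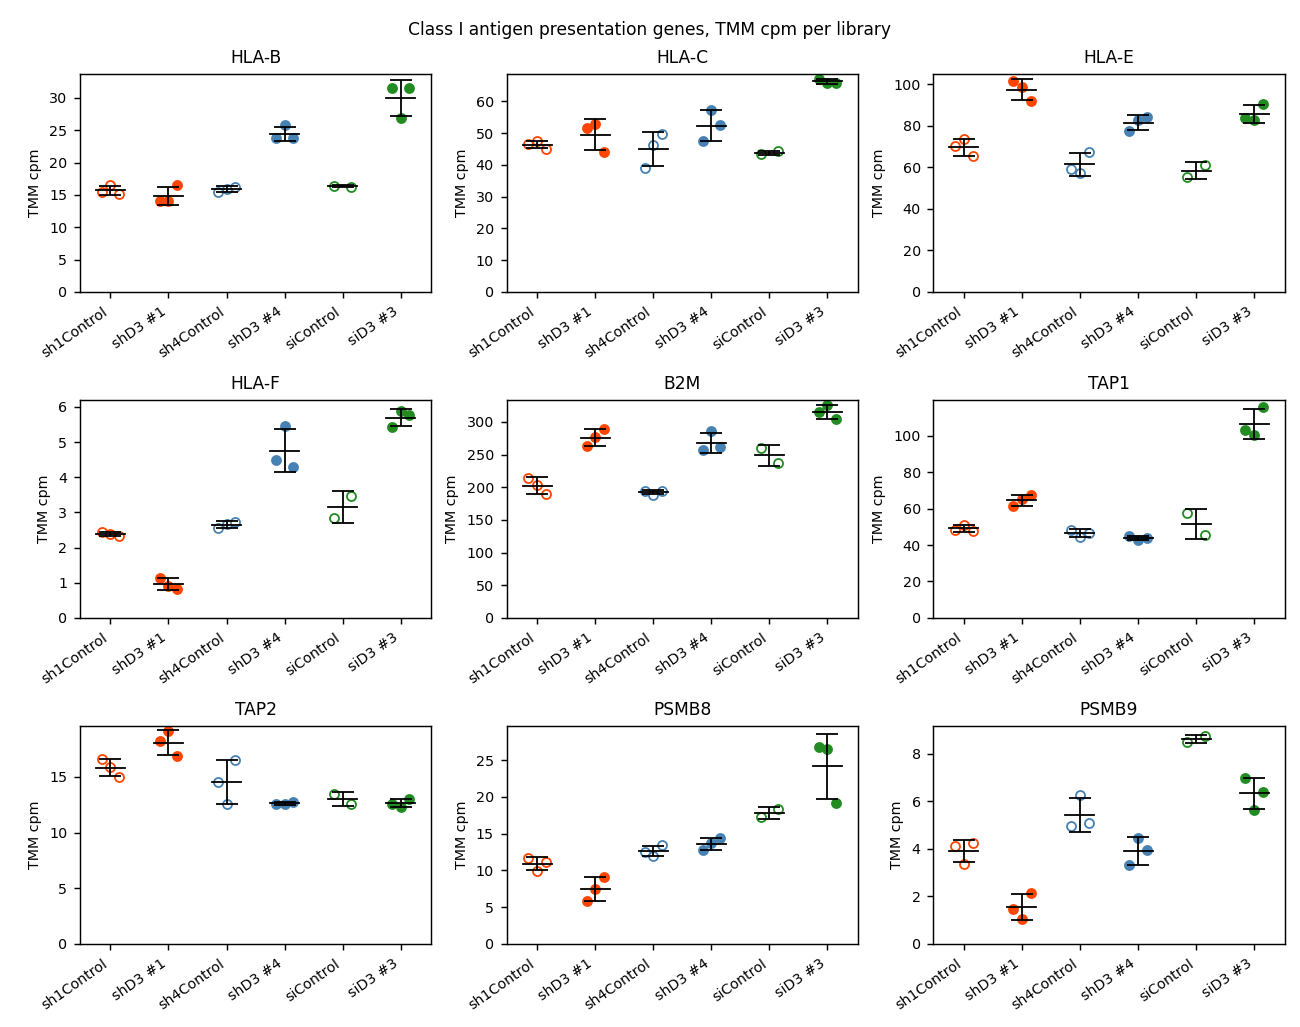
TMM cpm of each class I gene (vertical axis, linear from 0) in every first library, by group. Open points are controls, filled points knockdowns, bars the mean and SD. HLA-F lay below its controls in shD3 #1 (0.815 to 1.14 cpm) and above them in shD3 #4 and siD3 #3, and PSMB9 lay below its controls in all 3 knockdowns.

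In shD3 #1 the class I genes moved in both directions: HLA-F and the immunoproteasome subunit PSMB9 fell, while HLA-E, B2M and TAP1 had modest positive changes that passed the adjusted p alone. By both thresholds 0 of 9 were higher, where the share of all 16456 genes tested was 14.5%, and 2 of 9 were lower, where that share was 14.6%. DESeq2 likewise called 0 higher and 2 lower, and 4 genes had an unadjusted p under 0.05 with a positive change. The groups did not overlap for 7 of 9 genes, against 62.0% of all genes. Their median log2 fold change was 0.10, against -0.01 over all genes tested.

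HLA-F, a non-classical heavy chain that is also a ligand of natural killer cell receptors, stood at 2.44, 2.38 and 2.32 cpm in sh1Control and 1.14, 0.905 and 0.815 cpm in shD3 #1. These levels rest on 41 to 47 counts per control and 8 to 17 per knockdown library. The fitted change was 2.46-fold lower, with a log2 fold change of -1.30 ± 0.24 (SE), adjusted p = 2.01e-04. HLA-B, a classical heavy chain, was at 15.4, 16.5 and 15.2 cpm in controls and 14, 14 and 16.5 cpm in knockdowns, and the groups overlapped (log2 fold change -0.10, adjusted p = 0.408). HLA-C, the other classical heavy chain here, also overlapped (log2 fold change 0.10, adjusted p = 0.276). HLA-E, the ligand of the inhibitory receptor NKG2A, went from 70.3, 73.6 and 65.4 cpm to 102, 98.7 and 91.8 cpm without overlap. Its log2 fold change of 0.48 ± 0.07 (SE), adjusted p = 1.54e-05, lay under the fold threshold.

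B2M, the light chain shared by HLA-B, HLA-C, HLA-E and HLA-F, stood at 215, 204 and 189 cpm in sh1Control and 263, 276 and 288 cpm in shD3 #1. All knockdown libraries were higher, with a log2 fold change of 0.45 ± 0.06 (SE), adjusted p = 1.93e-05. TAP1 went from 48.2, 51.2 and 47.9 cpm to 61.5, 65.1 and 67.4 cpm, a log2 fold change of 0.40 ± 0.07 (SE), adjusted p = 9.65e-05. Its partner TAP2 had a log2 fold change of 0.20 that did not pass (adjusted p = 0.0595), although the groups did not overlap. For B2M, TAP1 and TAP2 alike, every knockdown library was above every control.

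PSMB9, which replaces the catalytic subunit PSMB6, was at 4.10, 3.36 and 4.23 cpm in sh1Control and 1.47, 1.06 and 2.14 cpm in shD3 #1. Every knockdown library, with 20 to 22 counts, lay below every control, with 58 to 84 counts. The fitted change was 2.67-fold lower, a log2 fold change of -1.42 ± 0.23 (SE), adjusted p = 6.68e-05. PSMB8, which replaces PSMB5, was at 11.7, 9.97 and 11.1 cpm against 5.83, 7.50 and 9.16 cpm, without overlap. Its log2 fold change of -0.57 ± 0.14 (SE), adjusted p = 0.00240, lay just under the fold threshold in size and went past it without sh1Control replicate 2 (-0.63), without shD3 #1 replicate 2 (-0.59) and without shD3 #1 replicate 3 (-0.70).

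**Figure D2:**
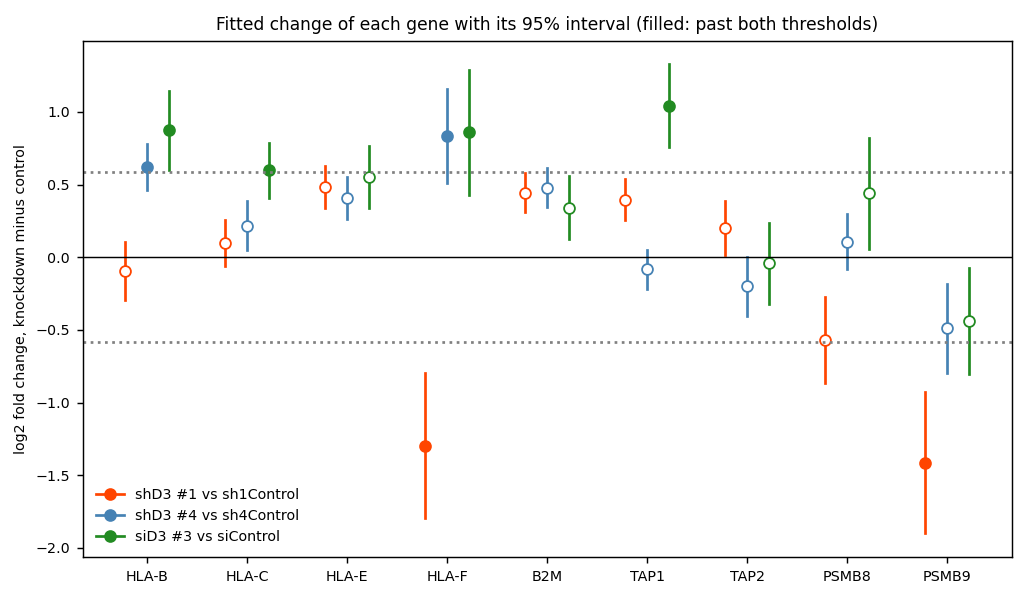
Fitted log2 fold change of each class I gene (knockdown minus its own control, edgeR) with its 95% interval, by knockdown. Dotted lines mark a 1.5-fold change in each direction, and filled points passed both thresholds: HLA-F (-1.30) and PSMB9 (-1.42) below in shD3 #1, HLA-B and HLA-F above in shD3 #4, and HLA-B, HLA-C, HLA-F and TAP1 above in siD3 #3.

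In shD3 #4 the heavy chains HLA-B and HLA-F rose and no class I gene fell past both thresholds. The 2 of 9 called higher compare with 8.00% of all 16493 genes tested, and the 0 of 9 called lower with 4.49%. DESeq2 also called 0 lower, and 1 gene, PSMB9, had an unadjusted p under 0.05 with a negative change. The groups did not overlap for 5 of 9 genes, against 49.4% of all genes. The median log2 fold change was 0.22, against 0.01 over all genes tested.

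HLA-B was at 15.4, 16 and 16.3 cpm in sh4Control and 23.8, 25.7 and 23.9 cpm in shD3 #4, a rise of 1.54-fold (log2 fold change 0.62 ± 0.08 (SE), adjusted p = 4.98e-07). Without shD3 #4 replicate 2 its log2 fold change was 0.58, just under the threshold. HLA-F went from 2.55, 2.67 and 2.74 cpm to 4.49, 5.45 and 4.3 cpm, 1.78-fold higher (log2 fold change 0.83 ± 0.16 (SE), adjusted p = 1.28e-04), on 48 to 95 counts per library. Every knockdown library was above every control for both genes. HLA-E, at 59.2, 57.5 and 67.6 cpm against 77.3, 82.8 and 84.4 cpm, and B2M, at 194, 189 and 194 cpm against 257, 285 and 262 cpm, were also higher in every knockdown library. Their log2 fold changes, 0.41 (adjusted p = 3.48e-05) and 0.48 (adjusted p = 1.22e-06), lay under the fold threshold, and HLA-C, with overlapping groups, had 0.22 (adjusted p = 0.0343).

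Neither transporter gene passed in shD3 #4, with log2 fold changes of -0.08 for TAP1 (adjusted p = 0.328) and -0.20 for TAP2 (adjusted p = 0.105), and both overlapped their controls. PSMB8 overlapped as well, at 0.11 (adjusted p = 0.372). PSMB9 was at 4.95, 6.25 and 5.10 cpm in sh4Control and 3.31, 4.47 and 3.96 cpm in shD3 #4, all knockdown libraries lower, with a log2 fold change of -0.49 ± 0.15 (SE), adjusted p = 0.0104. Without shD3 #4 replicate 2 it was -0.60 and past the fold threshold.

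In siD3 #3, 4 of 9 genes rose past both thresholds: TAP1, HLA-B, HLA-F and HLA-C. The share of all 17032 genes tested that was called higher was 12.5%, and lower 9.42%, against 0 of 9 here. DESeq2 called 3 higher, with HLA-C under the threshold at 0.57, and 0 lower, and 1 gene, PSMB9, had an unadjusted p under 0.05 with a negative change. The groups did not overlap for 8 of 9 genes, against 60.0% of all genes. The median log2 fold change was 0.55, against 0.03 over all genes tested.

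TAP1 was at 57.5 and 45.8 cpm in siControl and 103, 101 and 116 cpm in siD3 #3, 2.06-fold higher (log2 fold change 1.04 ± 0.12 (SE), adjusted p = 6.94e-04). TAP2, the other transporter subunit, stayed at 13.5 and 12.5 cpm against 12.6, 12.3 and 13.0 cpm, with overlapping groups and a 95% interval of its log2 fold change from -0.32 to 0.24. Of the transporter pair, TAP1 was called and TAP2 was not.

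HLA-B went from 16.4 and 16.3 cpm to 31.6, 26.8 and 31.5 cpm, 1.83-fold higher (log2 fold change 0.87 ± 0.12 (SE), adjusted p = 0.00122). HLA-F went from 2.83 and 3.46 cpm to 5.43, 5.88 and 5.78 cpm, 1.81-fold higher (log2 fold change 0.86 ± 0.19 (SE), adjusted p = 0.0104). HLA-C went from 43.4 and 44.2 cpm to 67.1, 65.8 and 65.8 cpm, 1.51-fold higher (log2 fold change 0.60 ± 0.08 (SE), adjusted p = 0.00129). With only 2 controls, leaving out siControl replicate 1 put HLA-C at 0.58 and HLA-F at 0.71 (adjusted p = 0.0865), and neither was then called. Where 1 control is left out, the spread comes from the siD3 #3 libraries and the lone control is assumed to vary like them, which holds for HLA-E below as well. HLA-E, at 55.5 and 61.3 cpm against 84.0, 82.6 and 90.6 cpm, had a log2 fold change of 0.55 ± 0.09 (SE), adjusted p = 0.00337, and was past the fold threshold without siControl replicate 2 (0.62) or without siD3 #3 replicate 2 (0.59). B2M, at 260.4 and 238 cpm against 315, 326 and 305 cpm, had 0.34 (adjusted p = 0.0270).

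The immunoproteasome genes were not called in siD3 #3. PSMB8 was at 17.2 and 18.4 cpm in siControl and 26.8, 26.5 and 19.1 cpm in siD3 #3, the lowest value in the replicate that stood apart, with a log2 fold change of 0.44 (adjusted p = 0.0758). Without that replicate it was 0.57 (adjusted p = 0.00142), still under the fold threshold. PSMB9 was at 8.50 and 8.73 cpm against 6.98, 5.65 and 6.37 cpm, all knockdown libraries lower, with -0.44 (adjusted p = 0.0666). Without replicate 3 the 4 called genes were again past both thresholds, with log2 fold changes of 0.97 for TAP1, 0.83 for HLA-B, 0.84 for HLA-F and 0.59 for HLA-C. HLA-E was then at 0.50 (adjusted p = 0.00101), B2M at 0.35 (adjusted p = 0.00876), TAP2 at -0.07 (adjusted p = 0.676) and PSMB9 at -0.45 (adjusted p = 0.0529), and none of these 4 was called.

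The difference between the shRNAs was itself tested in 1 fit of the 17 libraries. The change in shD3 #4 minus that in shD3 #1 passed an adjusted p of 0.05 for 6 of 9 class I genes, where 39.4% of all 18672 genes tested passed. HLA-F differed most, by 2.13 ± 0.25, adjusted p = 9.08e-07 on the log2 scale, since it fell in the one and rose in the other. PSMB9, HLA-B and PSMB8 also had the larger value in shD3 #4, and TAP1 and TAP2 in shD3 #1. For HLA-E (95% interval -0.29 to 0.15), B2M (95% interval -0.16 to 0.24) and HLA-C (95% interval -0.13 to 0.38) no difference was detected.

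The siRNA change minus the mean of both shRNA changes passed for 5 of 9 genes, HLA-F, TAP1, PSMB8, HLA-B and HLA-C, all with the larger value in siD3 #3, where 29.1% of all genes passed. TAP1 differed by 0.90 ± 0.11, adjusted p = 1.33e-06. B2M (95% interval -0.30 to 0.08), HLA-E (95% interval -0.09 to 0.33) and TAP2 (95% interval -0.30 to 0.24) did not pass, nor did PSMB9 (0.52 ± 0.22, adjusted p = 0.0765), which passed without shD3 #1 replicate 3 (0.64). Without siD3 #3 replicate 3 the same 5 genes passed, at 1.09 for HLA-F, 0.82 for TAP1, 0.82 for PSMB8, 0.58 for HLA-B and 0.45 for HLA-C. For HLA-F the mean of the shRNA changes combines opposite signs. The fitted signs were also opposite for HLA-B (-0.10 in shD3 #1 and 0.62 in shD3 #4), TAP1 (0.40 and -0.08) and PSMB8 (-0.57 and 0.11). The smaller change of each had overlapping groups, and each gene differed between the shRNAs in the test above.

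Baselines differed too. The level in siControl minus the mean of the shRNA controls passed for 3 of 9 genes, where 25.2% of all genes passed: PSMB9 (0.94 ± 0.15, adjusted p = 1.87e-04), PSMB8 (0.64 ± 0.13, adjusted p = 0.00120) and B2M (0.38 ± 0.07, adjusted p = 3.96e-04), all higher in siControl. Between sh1Control and sh4Control edgeR called 0 of 9, and 0 of 18672 genes in all (0%), although 2576 genes, PSMB9 among them (0.51 higher in sh4Control, adjusted p = 0.191), had an unadjusted p under 0.05 and DESeq2 called 283.

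Ratios within a library do not depend on the scaling between libraries, and they show how the balance of partner subunits moved. The ratio of PSMB8 to PSMB5, the constitutive subunit it replaces, was -2.81 to -2.66 on the log2 scale in sh1Control and -4.11 to -3.67 in shD3 #1. It was higher than in controls in shD3 #4 (mean difference 0.25) and siD3 #3 (0.63), and the groups did not overlap in any of the 3 comparisons. PSMB9 to PSMB6 differed by -1.49 in shD3 #1 without overlap, whereas the groups overlapped in shD3 #4 (-0.23) and siD3 #3 (-0.00135). PSMB6 itself had a log2 fold change of -0.45, adjusted p = 0.00693, in siD3 #3. PSMB5 itself had 0.52, adjusted p = 2.19e-05, in shD3 #1, so both partners moved in the PSMB8 to PSMB5 ratio there.

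PSMB10 to PSMB7, the pair of the remaining catalytic site, differed by 1.21 in shD3 #4 and 1.25 in siD3 #3 without overlap. It differed by -0.32 in shD3 #1 with overlap. PSMB7 itself had a log2 fold change of -0.33, adjusted p = 4.74e-04, in shD3 #4. Of the 3 pairs, only PSMB10 to PSMB7 overlapped its controls in shD3 #1, and only PSMB9 to PSMB6 overlapped in the other comparisons. TAP1 to TAP2 was 1.87 to 2.09 in siControl and 3.03 to 3.16 in siD3 #3, a difference of 1.09. In shD3 #1 it differed by 0.21 without overlap. B2M to the sum of HLA-B, HLA-C and HLA-E was lower in siD3 #3, by a mean of -0.28 without overlap, and overlapped in both shRNA comparisons. Without siD3 #3 replicate 3 the differences in siD3 #3 were 0.79 for PSMB8 to PSMB5, 1.419 for PSMB10 to PSMB7, 1.05 for TAP1 to TAP2 and -0.23 for B2M to the heavy chains, again without overlap, and 0.00384 for PSMB9 to PSMB6 with overlap.

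**Figure D3:**
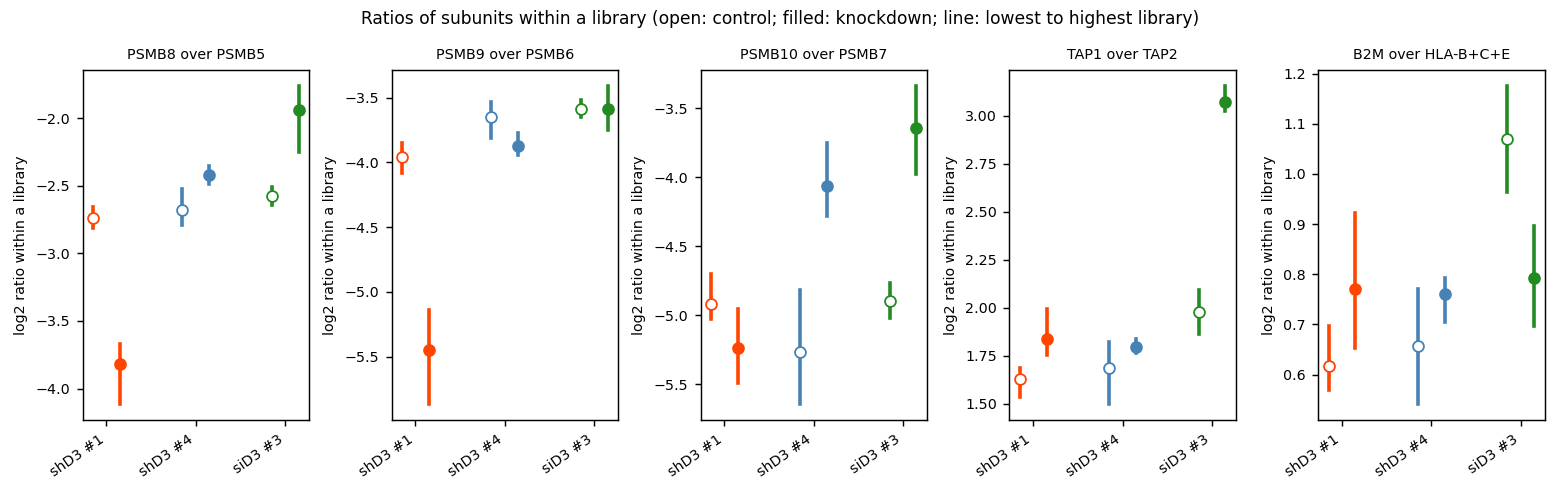
Log2 ratio of partner subunits within a library (vertical axis, own scale in each panel), for controls (open, mean) and knockdowns (filled, mean), with a line from the lowest to the highest library. The ratio of PSMB8 to PSMB5 went down in shD3 #1 (-1.08) and up in siD3 #3 (0.63).

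Other genes of the pathway were read from lists, whose counts stand against the shares called over all genes. For shD3 #1 these were 14.5% higher and 14.6% lower, for shD3 #4 8.00% higher and 4.49% lower, and for siD3 #3 12.5% higher and 9.42% lower. Of 16 genes of the constitutive proteasome, 1 was called higher in shD3 #1 (PSMB2, 0.69). These 16 include the assembly factor POMP and the regulator PSME3 beside the core subunits. In shD3 #4 0 were called in either direction by edgeR or DESeq2, with an unadjusted p under 0.05 for 12 with a negative and 0 with a positive change, and in siD3 #3 likewise 0, with 9 negative and 0 positive. Their median log2 fold changes were 0.08, -0.21 and -0.29 in shD3 #1, shD3 #4 and siD3 #3. Of the 3 inducible proteasome genes outside the members, PSMB10 rose in shD3 #4 (0.88, adjusted p = 0.00275) and in siD3 #3 (1.17, adjusted p = 0.00371), and in shD3 #1, at 1.64 cpm in controls, it had -0.25, adjusted p = 0.393. Without siD3 #3 replicate 3, 1 of these 3 was called higher and 0 lower in siD3 #3, and 0 of the 16 constitutive genes were called.

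Among 8 genes of peptide loading, shD3 #1 called 1 higher and 2 lower. Calnexin (CANX), a chaperone of new heavy chains, went from 2323 ± 105 to 439 ± 8.00 cpm, a log2 fold change of -2.40, adjusted p = 9.49e-14. ERAP1, which trims peptides to length, had -0.64, adjusted p = 9.67e-07, while the related ERAP2 rose by 0.70, adjusted p = 5.61e-05. In shD3 #4 0 were called by edgeR or DESeq2, with an unadjusted p under 0.05 for 4 positive and 1 negative change. In siD3 #3 3 were called higher and 0 lower: ERAP2 (1.14, adjusted p = 0.00159), TAPBPL (0.60, adjusted p = 0.0250) and tapasin (TAPBP, 0.67, adjusted p = 0.0118), which bridges TAP and the heavy chain. DESeq2 called 2 of them higher and 0 lower, and 2 genes of the list had an unadjusted p under 0.05 with a negative change, among them calreticulin (CALR, -0.45, adjusted p = 0.0218). Tapasin was not called in the shRNA comparisons, with log2 fold changes of 0.52 in shD3 #1 and 0.44 in shD3 #4. With siD3 #3 replicate 3 left out, its counts were again 3 higher and 0 lower of 8.

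Of 16 transcription factors of class I genes, 1 rose and 3 fell in shD3 #1. RELB, an NF-kappaB subunit, rose by 1.15, adjusted p = 1.88e-07, and RFX5 (-0.88, adjusted p = 1.97e-08), NFYC (-0.61) and NFYB (-0.61), parts of the complex that holds NLRC5 on class I promoters, fell. NLRC5 (0.12, adjusted p = 0.444) and IRF1 (0.18, adjusted p = 0.0782) were not called there. In shD3 #4 only IRF9 was called (0.65, adjusted p = 0.00726, not called by DESeq2), and NLRC5 had 0.45, adjusted p = 0.00420. In siD3 #3 5 rose, RELB (1.27, adjusted p = 0.0163), IRF1 (1.26, adjusted p = 3.90e-04), IRF9 (0.80), NLRC5 (0.79, adjusted p = 0.00996) and STAT2 (0.59), and NFYB fell (-0.59). DESeq2 called 3 of this list higher and 1 lower, and without siD3 #3 replicate 3 edgeR called 5 higher and 0 lower.

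Of 7 interferon receptor and kinase genes, shD3 #1 called IFNAR1 higher (0.72) and IFNAR2 lower (-0.60), the 2 chains of the type I receptor. In siD3 #3 IFNGR1, a chain of the interferon gamma receptor, rose (1.26), the 1 gene called, and without replicate 3 the counts were again 1 higher and 0 lower. In shD3 #4 0 were called by edgeR or DESeq2, with an unadjusted p under 0.05 for 3, all positive. The interferon-stimulated genes, 35 listed, gave 11 higher and 1 lower of 25 tested in shD3 #1, 7 and 0 of 23 in shD3 #4, and 19 and 1 of 29 in siD3 #3. For the 0 lower in shD3 #4, DESeq2 also called 0 and 3 had an unadjusted p under 0.05. The median log2 fold changes of the list were 0.66, 0.23 and 1.94 in shD3 #1, shD3 #4 and siD3 #3, the last 1.90 with XAF1 at its lower bound. Without siD3 #3 replicate 3 the counts in siD3 #3 were 19 higher and 1 lower of 28 tested. The share called higher was above that over all genes (14.5%, 8.00% and 12.5%) in each knockdown.

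The called interferon-stimulated genes were higher except GBP1 in shD3 #1 and USP18 in siD3 #3, and differences between knockdowns were not tested for them. GBP1, an interferon-induced guanylate-binding protein, went from 2.62 ± 0.275 to 0.543 ± 0.305 cpm in shD3 #1, on 4 to 9 counts per knockdown library (log2 fold change -2.41, adjusted p = 1.14e-05), and rose in siD3 #3 (0.97, adjusted p = 0.0102). SOCS1, a feedback inhibitor of interferon signalling, had the largest change of the list in shD3 #1, from 0.286 ± 0.0533 to 7.79 ± 0.475 cpm (4.74, adjusted p = 9.45e-11). GBP2 was the largest in shD3 #4 (1.12, adjusted p = 1.17e-08) and IFIT1 the smallest of those called (0.62, adjusted p = 0.00117). In siD3 #3, USP18 was the only one called lower (-0.82, adjusted p = 0.00856), and XAF1, which had no count in either siControl library, had 8 to 18 counts per knockdown library, at least 3.72-fold higher against a floor of 3 counts per library. MX1 had the largest fitted change among the others (3.73, adjusted p = 2.54e-04). Of 6 cytosolic peptidases, NRDC (-0.92) and BLMH (-0.73) were lower in shD3 #1 and THOP1, which destroys class I peptides, in siD3 #3 (-0.98, adjusted p = 1.69e-04). Leaving out siD3 #3 replicate 3, 1 of the 6 was again called lower and 0 higher. None was called higher by edgeR or DESeq2 in any of the 3 comparisons or lower in shD3 #4, with an unadjusted p under 0.05 and a positive change for 0, 1 and 1 gene in shD3 #1, shD3 #4 and siD3 #3, and a negative one for 1 gene in shD3 #4.

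**Figure D4:**
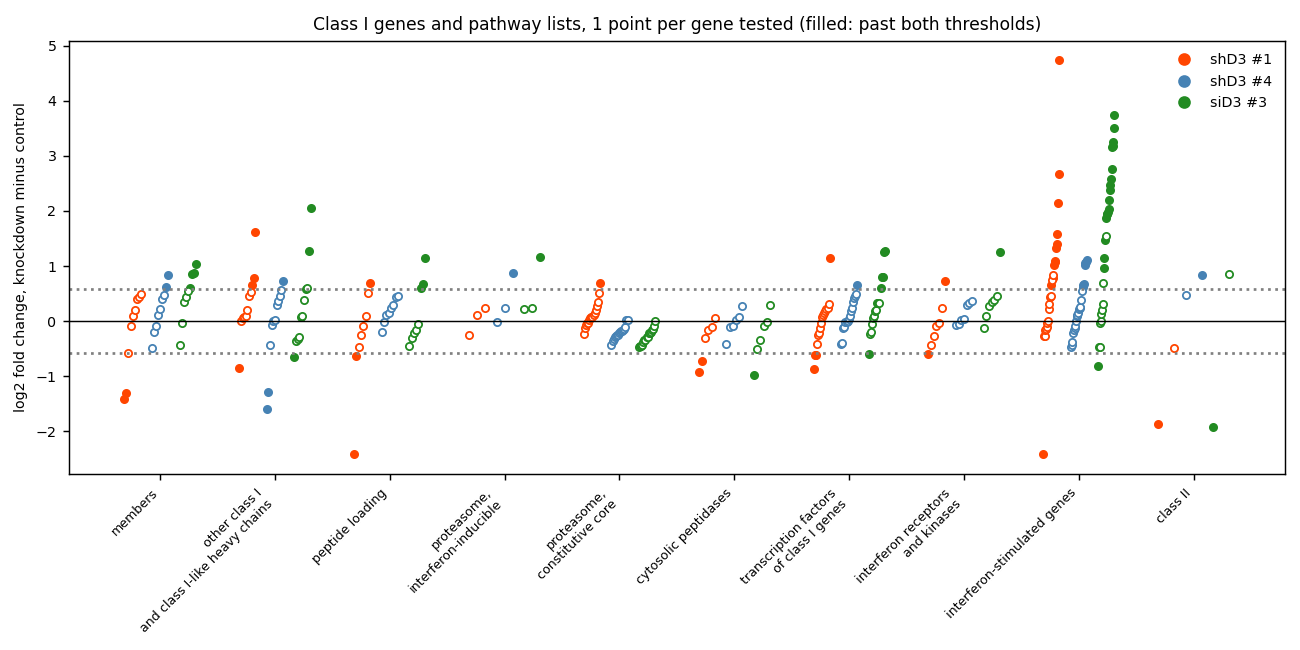
Log2 fold change (knockdown minus control) of each gene tested in the class I set and in 9 pathway lists, by knockdown, with filled points past both thresholds. Genes with no count in their controls are not drawn. The interferon-stimulated genes reach furthest above 0 in siD3 #3 (median 1.94), and the constitutive proteasome genes have medians of 0.08, -0.21 and -0.29 in shD3 #1, shD3 #4 and siD3 #3.

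Over the 17 first libraries, the genes most like each class I gene in log2 cpm were found by Pearson correlation (r) among 18672 genes, and r is given again with each library centred on its group mean. HLA-B was most like PNPLA8 (0.97, centred 0.74), ARMCX3 (0.96, centred 0.52) and C2CD2 (0.96, centred 0.71). HLA-C was most like TMEM63B (0.93, centred 0.71), WSB1 (0.92, centred 0.57) and TM7SF2 (0.92, centred 0.61). HLA-E was most like PCNX2 (0.98, centred 0.87), SVIL (0.96, centred 0.63) and KIAA1217 (0.96, centred 0.53). Centring lowered r for all 9 of these genes. HLA-F was most like ASS1 (0.98, centred 0.35), PCMTD1 (0.97, centred 0.46) and RBFOX2 (0.97, centred 0.54). B2M was most like SLC16A4 (0.95, centred 0.72), IGFL2-AS1 (0.95, centred 0.37) and MOAP1 (0.95, centred 0.54). TAP1 was most like NABP1 (0.99, centred 0.87), PLA2G4C (0.98, centred 0.70) and RRAD (0.98, centred 0.79). Of all the genes named here, ASS1 lost most of its r by centring. TAP2 was most like CLSTN1 (0.94, centred 0.65), PTPRS (0.92, centred 0.68) and GPAT4 (0.91, centred 0.71). PSMB8 was most like SYNC (0.97, centred 0.67), CCNG1 (0.97, centred 0.40) and TNFAIP1 (0.96, centred 0.65). PSMB9 was most like ECHS1 (0.97, centred 0.58), TBCA (0.97, centred 0.56) and SMIM20 (0.96, centred 0.69). None of these 27 genes belonged to the class I set. The libraries share 6 group means and their depths, so these values describe this set of libraries.

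The deep libraries could not be used for 8 of the 9 genes. HLA-B, HLA-E, TAP1, TAP2, PSMB8 and PSMB9 were listed at 0 counts in all 6, HLA-C had at most 2 counts and HLA-F at most 1, although their first sh1Control libraries held up to 1355 counts of a single gene. B2M had 336, 225 and 285 counts in deep sh1Control and 282, 276 and 245 in deep shD3 #1, or 5.71, 4.46 and 5.14 against 9.19, 10.1 and 6.79 cpm. It was called higher (log2 fold change 0.75 ± 0.14 (SE), adjusted p = 2.59e-04), where 15.0% of 18763 genes were called higher and 14.1% lower. As cpm of the library total, its deep sh1Control level was 2.55% of the first one, so this call rests on a small remainder of its reads. THUMPD3 stood at 89.6% and PSMB5 at 79.1% of the first level.

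The loss followed position. All 62 protein-coding genes from HLA-F to TAPBP with at least 5 cpm in the first sh1Control had under 10% of that level in deep sh1Control, against 1.86% of 10242 genes elsewhere. It also followed the reference sequence. The GRCh38 reference used here holds 261 alternate sequences, further versions of variable regions that are given beside the chromosomes. Each canonical transcript was divided into words of 50 bases, and the share of words found exactly on an alternate sequence was counted. Of 264 genes with at least 50% of their words on alternate sequences, 78.4% had under 10% of their first level, against 0.403% of 8438 genes with no such word. Among the members with at least 5 cpm on chromosome 6 the share lay between 56.7% (HLA-B) and 90.2% (TAP2), B2M had 77.8%, and TRIM69, also on chromosome 15, had 79.4% there and at most 3 counts. Gene counting in STAR uses reads that map to 1 place only. Whether the alignment to GRCh38.p14 included the alternate sequences is not given in the sources used here, and the part of the alternate sequences in the loss was not tested.

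**Figure D5:**
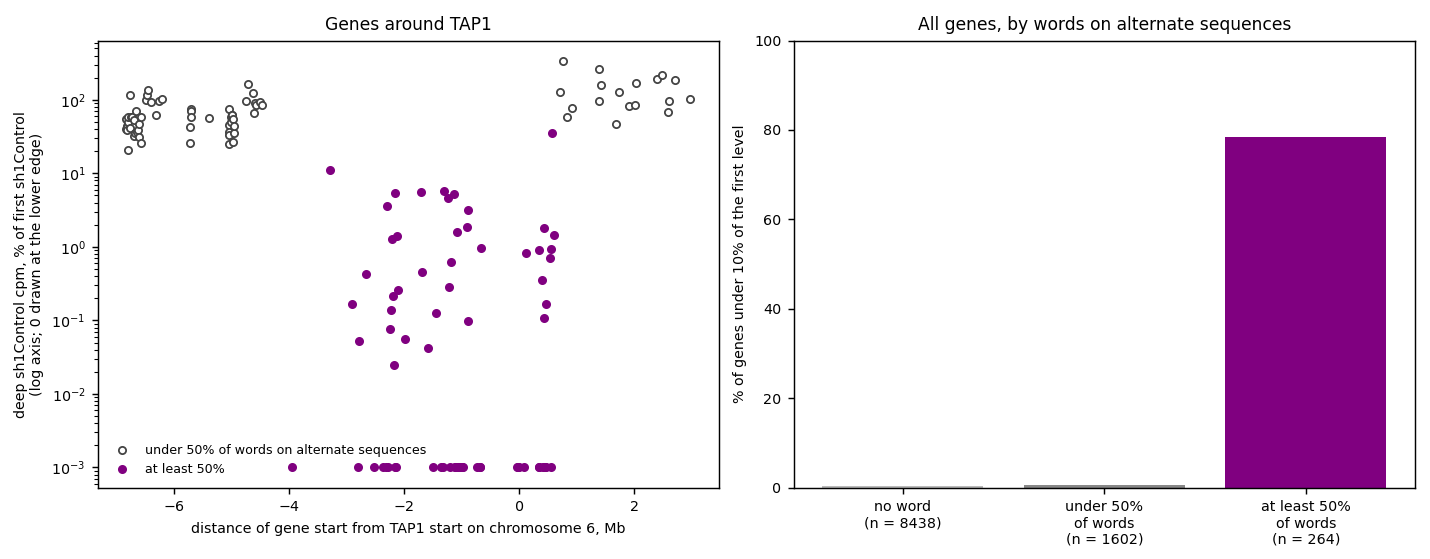
Left, deep sh1Control level as a percent of the first sh1Control level (log axis, 0 drawn at the lower edge) for protein-coding genes by distance from the TAP1 start on chromosome 6, coloured by the share of 50-base words on alternate sequences. Right, percent of genes under 10% of the first level by that share, 0.403% with no word there and 78.4% with at least 50%.

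Several pathway genes outside that region could be read in the deep libraries, but lying outside it was not enough. B2M in deep sh1Control stood at 2.55% of its first level, and 15 of 16 constitutive proteasome genes were tested. CANX (-2.0, adjusted p = 1.73e-13), RFX5 (-1.11, adjusted p = 2.98e-09) and GBP1 (-2.21, adjusted p = 4.10e-07) were lower in deep shD3 #1, and SOCS1 (2.97, adjusted p = 3.44e-08) and ERAP2 (0.84, adjusted p = 1.03e-06) were higher. PSMB10, at 7.21 cpm in deep sh1Control, had -0.29, adjusted p = 0.0249 and was not called.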

How the data were processed

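RNA was sequenced from 23 libraries of A549 cells. Per the labels and the study's methods, the authors trimmed reads with Trimmomatic 0.40, aligned them to GRCh38.p14 with STAR 2.7.10a and counted them on RefSeq genes, and deposited raw gene counts. The RefSeq annotation is the one the methods name, but the first table lists Ensembl identifiers, of which 61757 were matched to symbols, and the deep table lists symbols.

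The quasi-likelihood test of edgeR 4.0.16 (R 4.3.3) was run on all genes for each knockdown against its controls, with TMM scaling, filterByExpr and Benjamini-Hochberg adjustment. The methods of the study used DESeq2, which was run here as an alternative (1.42.0). Differences between comparisons were tested in 1 fit of the 17 first libraries. Recovery was checked on simulated data. Genes were called at an adjusted p under 0.05 and the study's threshold of 1.5-fold. Correlations and ratios added 2 and 0.5 to the counts. Promoter windows, annotation and lengths came from RefSeq and GENCODE, read with python 3.11.15.

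Members, lists and rules were chosen with earlier results of these data known. Named were all 9 members, the most and least changed called gene of each list, PSMB10, NLRC5, IRF1, TAPBP, CALR, ERAP1, PSMB5, PSMB6, PSMB7 and THUMPD3, and the genes most correlated with each member. A further gene of the rule is not reported here. Other genes, named where a count was 5 or fewer or beside a member, were picked after their values were seen. So were TRIM69, ITGAM, ITGAX, CD14, KRT19, EPCAM and CDH1. The canonical transcript length, the lists and ratios without siD3 #3 replicate 3 and the comparison with alternate sequences were added after seeing the data. Replicates shared numbers, but deviations from the group means correlated at only -0.11 to 0.14 by number. P-values measure the spread between the libraries of a group, and precision follows the counts: 8 to 17 for HLA-F in shD3 #1, against 2833 to 5193 for B2M.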

Additional observations from a re-analysis of the deposited data

Results flagged for a closer look

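The tests of the differences between knockdowns passed for 11 class I values, which are given on the log2 scale with the adjusted p of the fit of 17 libraries (edgeR). For the change in shD3 #4 minus the change in shD3 #1, HLA-F gave 2.13 ± 0.25, adjusted p = 9.08e-07. PSMB9 gave 0.93 ± 0.27, adjusted p = 0.0101, HLA-B 0.72 ± 0.12, adjusted p = 8.89e-05 and PSMB8 0.68 ± 0.20, adjusted p = 0.00988. The transporter genes had the opposite sign, with -0.48 ± 0.11, adjusted p = 0.00196 for TAP1 and -0.40 ± 0.14, adjusted p = 0.0236 for TAP2. The calls of TAP2 and PSMB9 were lost when single libraries were left out.

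For the change in siD3 #3 minus the mean change of the shRNAs, HLA-F gave 1.11 ± 0.20, adjusted p = 3.24e-04 and TAP1 0.90 ± 0.11, adjusted p = 1.33e-06. PSMB8 gave 0.68 ± 0.17, adjusted p = 0.00506, HLA-B 0.62 ± 0.11, adjusted p = 2.69e-04 and HLA-C 0.45 ± 0.12, adjusted p = 0.00531. HLA-F changed by 0.86 in siD3 #3, 0.83 in shD3 #4 and -1.30 in shD3 #1, so its mean over the shRNAs combines opposite signs. The means of HLA-B, TAP1 and PSMB8 also combine fitted shRNA changes of opposite sign. The siRNA and shRNA libraries also differed in day of harvest and, for PSMB8, in the level of their controls, and the part of either was not tested.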

How the results depend on the processing

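Alternatives were DESeq2, its size factors in edgeR, 2 other count filters, 2 other thresholds, a replicate block, 1 fit of all 17 libraries and each library left out in turn. Counts of called class I genes moved as follows, first where by over 1.5 times. With the adjusted p alone, 3 were higher and 6 called in all in shD3 #1, and 5 were higher, 1 lower and 6 called in all in shD3 #4. With a log2 threshold of 1, 0 were higher and 0 called in shD3 #4, 1 higher and 1 called in siD3 #3, and 0 in the deep libraries. With at least 10 counts in every library, 1 was lower and 1 called in shD3 #1, since HLA-F was no longer tested. Smaller moves were 6 higher in siD3 #3 with the adjusted p alone, 5 higher there (HLA-E added) with at least 10 counts, 3 higher there (HLA-C lost) with no filter beyond 1 count or with DESeq2, and 3 lower in shD3 #1 (PSMB8 added) with no filter or 1 fit of 17 libraries. With each library left out in turn, called genes numbered 2 to 3 in shD3 #1 and 2 in shD3 #4 (1 to 2 higher, 0 to 1 lower), and 2 to 5 in siD3 #3. The replicate block left 2, 2 and 4 called genes in shD3 #1, shD3 #4 and siD3 #3 and changed no call of a class I gene. Deviations of same-numbered libraries correlated at only -0.11 to 0.14. With so few libraries per group, these values cannot show whether the cultures were paired.

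Signs turned for 9 uncalled values near 0 when single libraries were left out. TAP2 in siD3 #3 ranged from -0.101 to 0.00550, and was 0.00538 with at least 10 counts in every library. Between the shRNA effects, B2M ranged from -0.0122 to 0.0846 and HLA-E from -0.118 to 0.00285. For siD3 #3 minus the shRNAs, TAP2 ranged from -0.0939 to 0.0238. For siControl minus the shRNA controls, HLA-C ranged from -0.0615 to 0.0227 and TAP1 from -0.0219 to 0.305, the last called without siControl replicate 2. For sh4Control minus sh1Control, B2M ranged from -0.0835 to 0.00720, HLA-C from -0.0855 to 0.0833 and TAP2 from -0.188 to 0.0121. The cause was not tested. The call of TAP2 between shRNAs was lost with no filter beyond 1 count (adjusted p = 0.0843) and without sh1Control replicate 3, shD3 #1 replicate 2 or sh4Control replicate 3 (adjusted p = 0.0601, 0.0649 and 0.0830), and that of PSMB9 without shD3 #1 replicate 2 (0.67, adjusted p = 0.0678). Low counts limit HLA-F and PSMB9, and 2 controls limit siD3 #3.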

Other observations

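Other class I and class I-like heavy chains were also counted. Over all genes, shD3 #1 called 14.5% higher and 14.6% lower, shD3 #4 8.00% higher and 4.49% lower, and siD3 #3 12.5% higher and 9.42% lower, and a count of 1 gene in 11 or 12 lies near these shares. Of 14 listed, shD3 #1 called 3 of 11 tested higher and 1 lower, shD3 #4 called 1 higher and 2 lower of 11, and siD3 #3 called 4 higher, among them the 3 named below, and 1 lower of 12, or 4 higher and 1 lower of 11 without siD3 #3 replicate 3. ULBP2, a stress ligand of the receptor NKG2D, rose in shD3 #1 (1.62, adjusted p = 2.62e-07) and siD3 #3 (1.27, adjusted p = 0.00403) and fell in shD3 #4 (-1.28, adjusted p = 2.13e-05), and ULBP1 fell in shD3 #4 (-1.60, adjusted p = 5.01e-08). MR1, which presents vitamin B metabolites, went from 13.1 ± 1.31 to 54.0 ± 1.89 cpm in siD3 #3 (2.05, adjusted p = 1.55e-05) and rose in shD3 #4 (0.73, adjusted p = 1.03e-06). HFE, a regulator of iron uptake, fell in shD3 #1 (-0.86, adjusted p = 1.32e-07) and siD3 #3 (-0.66, adjusted p = 0.00666). RAET1E (0.78) and FCGRT (0.65) rose in shD3 #1. CD1D, which presents lipids, had 0 counts in both siControl libraries and 9 to 22 counts in siD3 #3, at least 3.75-fold higher against a floor of 3 counts per library.

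Of 10 class II genes only HLA-DMA and HLA-DMB, which edit peptides on class II molecules, were tested. HLA-DMB fell in shD3 #1, from 21.7 ± 0.868 to 6.0 ± 0.389 cpm (-1.87, adjusted p = 3.28e-10), and in siD3 #3 (-1.91, adjusted p = 0.0412), where it ranged from 17 to 124 counts per library and was not called by DESeq2, and HLA-DMA rose in shD3 #4 (0.84, adjusted p = 9.71e-06). Without siD3 #3 replicate 3, 1 of the pair was called higher and 1 lower in siD3 #3 (median log2 fold change -0.14, against -0.53 with it). No difference between knockdowns was tested for these genes.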
